A study of Mus musculus with 18 samples.

Results

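A set of 10 genes that carry fatty acids into the cardiomyocyte and through mitochondrial β-oxidation were followed in 18 mouse hearts, and none of them differed detectably between the vector groups. The genes were *Cd36*, *Fabp3*, *Cpt1b*, *Cpt2*, *Acadm*, *Acadl*, *Acadvl*, *Hadha*, *Hadhb* and *Pdk4*. They were chosen by name from textbook knowledge of the pathway, with earlier results of these data known. All 10 are among the 23457 genes of the count table and the 23396 genes of the FPKM table. FPKM are fragments per kilobase of transcript, scaled to the mapped fragments of a library. The hearts came from male C57BL/6 mice injected intravenously at 8 weeks of age with a recombinant adeno-associated virus of serotype 6 (rAAV6) and collected at 17 weeks. One group of 6 received rAAV6-PLCβ1b, the splice variant of phospholipase Cβ1 that the study links to contractile depression, and 6 received rAAV6-PLCβ1a, the variant it treats as inactive in heart. The remaining 6 received rAAV6-blank, whose vector has a promoter and gives no protein, so that every heart in the series was exposed to virus and no uninjected heart serves as a reference. The promoter that drives the vectors is not named in the sources used here. The labels call the tissue both ventricles, whereas the methods name the left ventricle.

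The heart takes most of its energy from long-chain fatty acids. They enter the cell through the translocase CD36, are bound in the cytosol by FABP3, pass the mitochondrial membranes as carnitine esters made by CPT1B and taken apart again by CPT2, and are then shortened by cycles of dehydrogenation, hydration, oxidation and thiolysis. The acyl-CoA dehydrogenases ACADVL, ACADL and ACADM open the cycle for very long, long and medium chains, and HADHA and HADHB are the α and β subunits of the trifunctional protein that completes it for long chains. PDK4 phosphorylates and inhibits pyruvate dehydrogenase and so turns mitochondria from glucose towards fat; its gene is a well-known target of PPARα, the nuclear receptor that senses fatty acids, and is induced by fasting.

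Library totals ranged from 13246339 to 24155465 counts with a median of 18598694. Mitochondrially encoded genes took 67.1% to 71.9% of them, which left 3908354 to 7591558 nuclear counts per heart. Most of the mitochondrial share was not messenger RNA, since the mitochondrial ribosomal RNA Rnr2 alone took 53.5% to 57.5% of the library totals. *Plcb1*, the gene carried by both PLCβ1 vectors, stood at 6.26 ± 0.54 CPM (counts scaled to 1e+06 per library, mean ± SD, n = 6) in blank hearts. It stood at 22.2 ± 3.87 CPM in PLCβ1a hearts and at 46.9 ± 17.5 CPM in PLCβ1b hearts, with no overlap between blank and either PLCβ1 group. PLCβ1b heart 8, which matters for *Pdk4* below, had the lowest *Plcb1* of its group at 23.1 CPM. The 8 cardiomyocyte markers (*Myh6*, *Ttn*, *Tnnt2* and others) summed to 48221 to 53770 CPM, whereas the 7 adipocyte markers summed to 0.82 to 9.23 CPM. *Lep*, *Adipoq* and *Plin1* reached at most 2, 14 and 14 counts in any heart. Whether a lower level means fewer cells of a type or less RNA per cell cannot be told apart in bulk tissue.

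The start regions of 9 of the 10 genes were in the RefSeq promoter set (GRCm38.p6), and those of *Hadha* and *Pdk4* are shown here. *Hadha* and *Hadhb* lie head to head on chromosome 5, with 341 bases between their starts in the deposited mm10 annotation, so that the 250 bases upstream of *Hadha* (chr5:30154981-30155230, minus strand) fall in the stretch that separates the genes for both subunits of one enzyme. *Pdk4* (chr6:5496279-5496528, minus strand) is the member that varied most from heart to heart. Both are written 5′ to 3′ and end 1 base before the transcription start, and capitals mark a match to a motif searched on either strand, a GC box (GGGCGG) in *Hadha* and a CCAAT box in *Pdk4*, both on the strand opposite to the gene.

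Hadha: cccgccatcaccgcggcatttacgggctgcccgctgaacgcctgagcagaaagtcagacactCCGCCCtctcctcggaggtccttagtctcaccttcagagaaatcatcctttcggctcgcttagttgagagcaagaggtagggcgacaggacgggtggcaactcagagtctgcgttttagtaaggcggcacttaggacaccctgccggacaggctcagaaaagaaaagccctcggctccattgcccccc

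Pdk4: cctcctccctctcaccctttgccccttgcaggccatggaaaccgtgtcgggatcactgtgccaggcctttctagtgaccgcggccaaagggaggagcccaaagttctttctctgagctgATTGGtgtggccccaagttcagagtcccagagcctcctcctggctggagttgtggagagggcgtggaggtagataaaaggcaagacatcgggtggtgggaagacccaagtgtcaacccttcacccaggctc

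GGGCGG occurred in 32.7% of all 32851 promoters of this length and in 5 of the 9 members (*Acadl*, *Cd36*, *Cpt2*, *Hadha* and *Hadhb*), and CCAAT in 33.8% and in *Cd36* and *Pdk4*. The windows of *Hadha* and *Hadhb* (chr5:30155003-30155252) overlap. The GGGCGG of *Hadha* is the same site as a match of *Hadhb*, so these members are not separate instances. The nuclear receptor half-site AGGTCA occurred in 14% of promoters and in *Acadm*, *Acadvl* and *Cd36*. The *Cd36* window lies before a start at chr5:17835896. In the deposited annotation, which has 5 transcripts of *Cd36*, the outermost start is at chr5:17888959, so the window covers another start of the gene. The direct repeat AGGTCANAGGTCA, the form bound by PPARα with its partner RXR, was in 0.0335% of promoters and in none of these 9, and the forkhead letters TGTTTAC (3.17%) and the TATA letters TATAAA (12.4%) were also in none. Each AGGTCANAGGTCA also holds AGGTCA. A match is a description of the letters and not evidence of binding.

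By length-corrected level these were abundant messages. In blank hearts *Fabp3* averaged 542 FPKM, *Cd36* 301 and *Acadm* 210, and the ranges of these 3 genes did not overlap with that of the gene below them. *Hadhb* (175 FPKM), *Acadvl* (171), *Acadl* (170) and *Hadha* (162) formed a cluster in which neighbours overlapped. *Cpt1b* followed at 104 FPKM, below *Hadha* in 18 of 18 hearts. *Pdk4* (46.6 FPKM) and *Cpt2* (38.5 FPKM) were the lowest, and their order was not stable, since *Pdk4* exceeded *Cpt2* in 11 of 18 hearts. The plot of FPKM by heart shows the 3 groups lying on top of each other for 9 of the genes and a broad scatter for *Pdk4*.

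**Figure D1:**
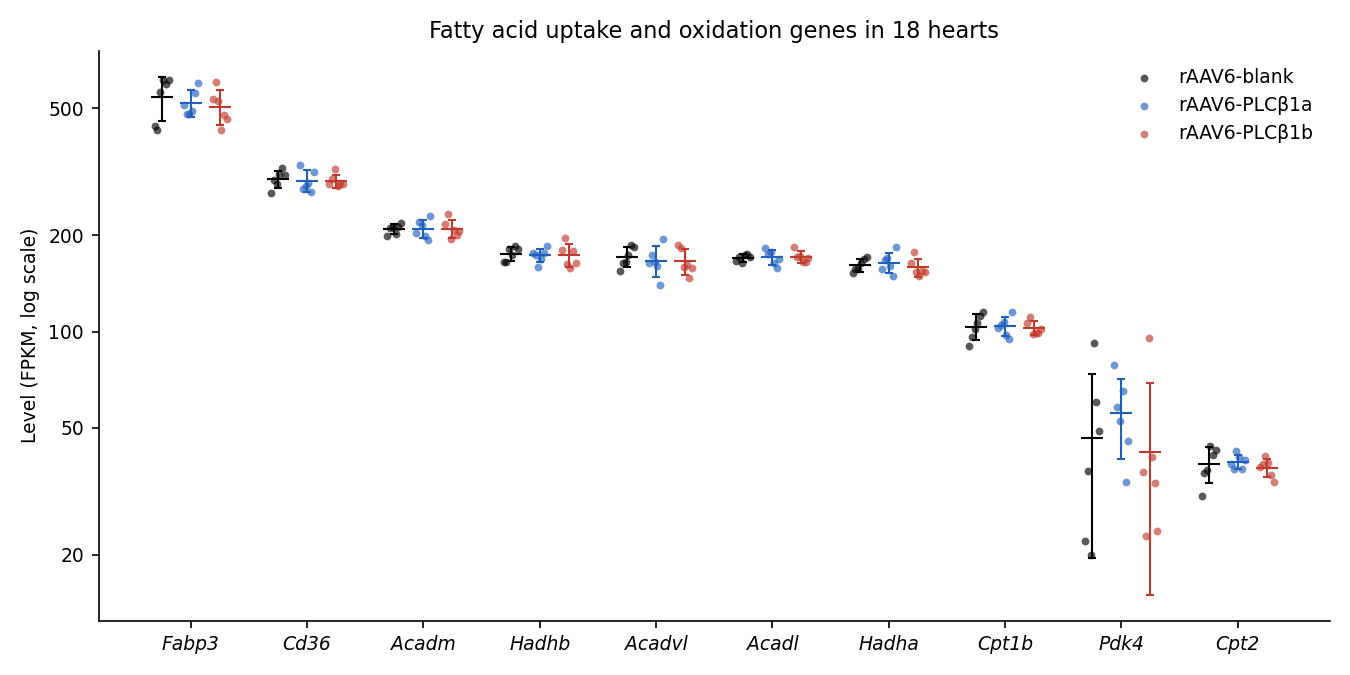
FPKM (log scale) of the 10 genes in each of 18 hearts, ordered by the mean in blank hearts. Points are hearts, and bars give the mean ± SD of the 6 hearts of a group (black rAAV6-blank, blue rAAV6-PLCβ1a, red rAAV6-PLCβ1b); *Pdk4* runs from 19.99 to 95.5 FPKM, whereas *Acadl* runs from 158 to 184.

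The 2 uptake genes overlapped between all groups. In blank hearts *Cd36* lay between 272 and 325 FPKM (median 303), as against 273 to 333 (289) with PLCβ1a and 285 to 322 (290) with PLCβ1b. The groups overlapped throughout, and the log2 fold change was 0.00 for PLCβ1b against blank (95% interval -0.07 to 0.08) and 0.00 for PLCβ1a against blank (-0.07 to 0.08). *Fabp3*, the most abundant of the 10, lay between 427 and 614 FPKM with the blank vector (median 579), between 479 and 601 with PLCβ1a (501) and between 429 and 604 with PLCβ1b (502). Blank medians were the highest, but the groups overlapped over nearly their whole range. Its log2 fold change was -0.08 (-0.26 to 0.11) in PLCβ1b hearts and -0.05 (-0.24 to 0.13) in PLCβ1a hearts.

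The carnitine shuttle genes overlapped as well. *Cpt2*, which frees the acyl group inside the mitochondrion, spanned 30.5 to 43.8 FPKM with the blank vector, 37.0 to 42.3 with PLCβ1a and 33.8 to 40.9 with PLCβ1b, the medians being 39.0, 39.0 and 38.0. Blank hearts spanned both other groups, and the log2 fold change was -0.02 (-0.13 to 0.08) in PLCβ1b and 0.05 (-0.06 to 0.15) in PLCβ1a hearts.

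*Cpt1b*, the muscle form of the enzyme that commits fatty acids to the mitochondrion, was read very differently by the 2 deposited tables. It had only 11 to 23 counts per heart, yet 90.03 to 115 FPKM with the blank vector, 95.01 to 115 with PLCβ1a and 98.2 to 111.1 with PLCβ1b. Its FPKM was 306 times what its counts scaled to length and depth would give at the ratio of the median gene, a ratio above that of 99.99% of 12240 genes. Of its 2894 exonic bases (chr15:89416405-89425862, minus strand, mm10), 2744 are shared in that annotation with the readthrough gene *BC090627* on the same strand, which leaves 150 of its own, and *BC090627* had 0 counts in every heart. Counting in union mode, as the methods describe, gives a read that touches 2 genes to neither. FPKM is thus the fuller measure of *Cpt1b*, and its log2 fold changes in FPKM were -0.01 for PLCβ1b and 0.00 for PLCβ1a (limma), against -0.14 (-0.57 to 0.29) and -0.15 (-0.58 to 0.28) from the few counts. *Hadhb* also had more FPKM than its counts would give, 2.06 times the ratio of the median gene (above 97.7% of genes). The cause was not tested.

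The 3 acyl-CoA dehydrogenases overlapped between all groups, and *Acadl* was the steadiest of the 10 genes. *Acadm* lay between 199.7 and 219 FPKM with the blank vector (median 212), between 194 and 229.6 with PLCβ1a (209) and between 195 and 233 with PLCβ1b (207). *Acadl* spanned 163 to 175 FPKM, 158 to 182 and 165 to 184 in the same order, the medians being 171, 172 and 171. For both genes the blank hearts lay inside the range of the PLCβ1a hearts, and none of the 18 hearts was more than 1.203-fold (*Acadm*) or 1.164-fold (*Acadl*) above another. *Acadvl* was wider, at 155 to 186 FPKM with the blank vector, 139.96 to 195 with PLCβ1a and 147 to 186 with PLCβ1b, again with overlap of all groups. In PLCβ1b against blank hearts the log2 fold changes were 0.03 (-0.06 to 0.11) for *Acadm*, 0.03 (-0.05 to 0.10) for *Acadl* and -0.02 (-0.12 to 0.07) for *Acadvl*.

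The subunits of the trifunctional protein gave the same picture. *Hadha* lay between 152 and 171 FPKM with the blank vector (median 161), between 149 and 184 with PLCβ1a (164) and between 149 and 177 with PLCβ1b (154). *Hadhb* spanned 165 to 186, 159 to 185 and 158 to 197 FPKM in the same order. The log2 fold change of *Hadha* was 0.00 (-0.09 to 0.08) in PLCβ1b and 0.05 (-0.03 to 0.13) in PLCβ1a hearts, and that of *Hadhb* was 0.02 (-0.07 to 0.11) and -0.02 (-0.10 to 0.07).

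*Pdk4* stood apart in its spread. Levels lay between 19.99 and 91.97 FPKM with the blank vector (median 42.6), between 33.8 and 78.7 with PLCβ1a (55.3) and between 22.98 and 95.5 with PLCβ1b (34.9). The highest heart held 4.78 times the lowest, and high and low hearts occurred in the blank and PLCβ1b groups alike. Blank hearts 26 and 32 were the lowest of their group and blank heart 33 the highest, and PLCβ1b heart 8 stood far above the other 5 PLCβ1b hearts, which lay between 22.98 and 40.5 FPKM. The log2 fold change was -0.13 (-0.95 to 0.68) for PLCβ1b against blank, 0.28 (-0.53 to 1.08) for PLCβ1a against blank and -0.41 (-1.22 to 0.40) for PLCβ1b against PLCβ1a. These intervals still allow a difference of about 2-fold for PLCβ1a against blank (upper limit 2.12-fold), so that a moderate difference in *Pdk4* was not detectable with 6 hearts a group. Without PLCβ1b heart 8 the log2 fold changes of PLCβ1b were -0.54 against blank (SE 0.33, unadjusted p = 0.126 from edgeR) and -0.81 against PLCβ1a (SE 0.33, unadjusted p = 0.0276 from edgeR, adjusted p = 0.9996). Without blank heart 33 the change in PLCβ1b hearts turned to 0.16, and that in PLCβ1a hearts was 0.57.

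In the test across all genes, 0 of the 10 passed an adjusted p of 0.1 in any of the 3 comparisons (edgeR quasi-likelihood test, Benjamini-Hochberg adjustment over 12281 genes). Of all genes tested, 0.0977% passed in PLCβ1b against blank, 0.138% in PLCβ1a against blank and 0% in PLCβ1b against PLCβ1a. At an unadjusted p under 0.05 the count of members was again 0 in each comparison by edgeR, DESeq2 and limma, where 7.41%, 8.58% and 4.42% of all genes passed by edgeR. No member separated 2 groups without overlap in CPM, against 0.48%, 0.594% and 0.179% of all genes. The median log2 fold change over the 10 was -0.01 in PLCβ1b and 0.01 in PLCβ1a hearts against blank, and over all genes it was 0.00 in both. The comparisons with blank share the same 6 control hearts. For 8 members the intervals of all comparisons reached no farther than 1.196-fold in either direction, *Pdk4* (2.33-fold) and the count-based *Cpt1b* (1.499-fold) being the exceptions, as the plot of intervals shows.

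**Figure D2:**
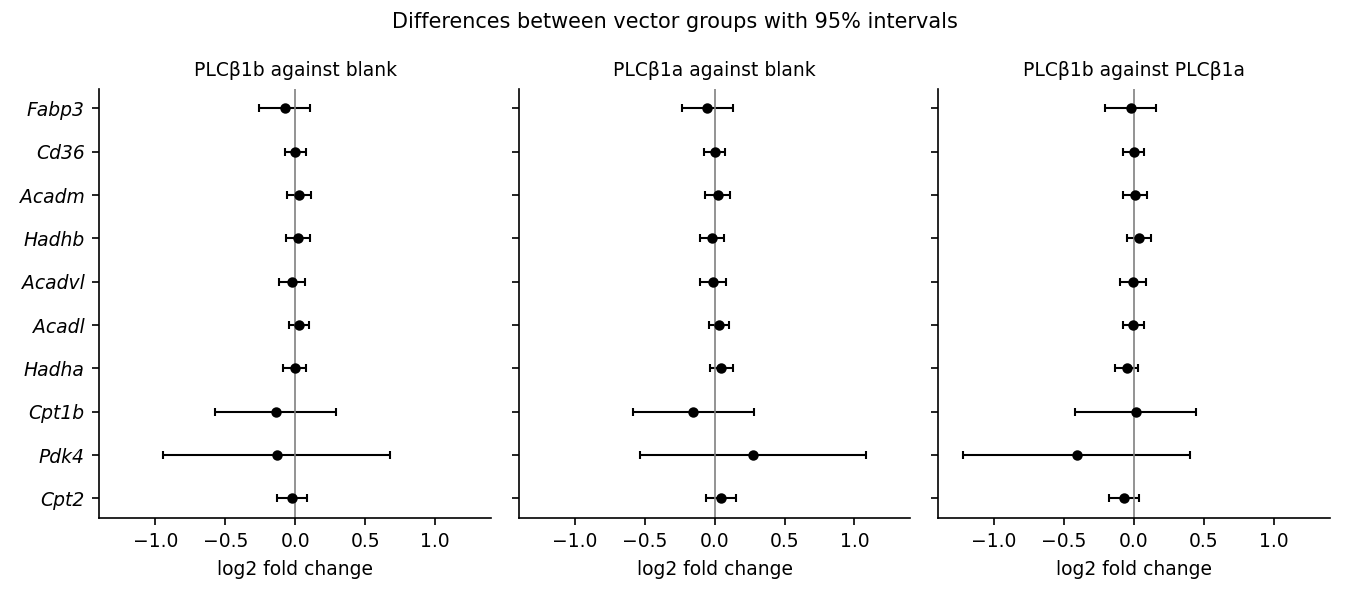
Log2 fold change of each gene in the 3 comparisons, from gene counts, with 95% intervals (edgeR, 6 hearts a group); the line at 0 marks no difference. All 30 intervals include 0, and only those of *Pdk4* and *Cpt1b* are wide.

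The spread within groups differed widely between members. The SD of log2 CPM within groups was 0.65 for *Pdk4*, higher than that of 99.5% of genes tested, whose median was 0.16. It was 0.05 for *Acadl* and 0.06 for *Cd36*, and only 1.19% and 3.17% of genes were steadier. *Hadha*, *Hadhb*, *Acadm* and *Acadvl* were also below most genes, with SDs of 0.07 to 0.09, and *Fabp3* was near the middle at 0.15. Counting error is part of this SD and is smaller in genes with many counts.

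Members were then compared from heart to heart. Of 45 pairs, 24 had a positive Pearson r across the 18 hearts in log2 CPM, the median r was 0.04, and no pair passed an adjusted p of 0.1 in both families of 12280 genes. A family holds the correlations of 1 member with every other gene tested, and the p come from 100000 permutations of the hearts. The share of all genes that passed was 0.985% with *Fabp3*, 0.285% with *Acadvl*, 0.187% with *Acadm*, 0.163% with *Pdk4*, 0.0326% with *Acadl* and 0% with each of the other 5. The closest pair was *Acadm* with *Hadha*, with r = 0.80 and Spearman's coefficient = 0.79 (adjusted permutation p = 0.0682 and 0.184 in the 2 families), and r = 0.70 once the pair of hearts most distant in *Acadm* was dropped. Its r within the blank, PLCβ1a and PLCβ1b groups was 0.64, 0.95 and 0.88. *Fabp3* with *Acadvl* had r = 0.73 and Spearman's coefficient = 0.61 (adjusted permutation p = 0.0760 and 0.115), falling to 0.50 without the 2 hearts farthest in *Fabp3*.

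The divergent pair *Hadha* and *Hadhb* had r = 0.53 and Spearman's coefficient = 0.48 (adjusted permutation p = 0.619 and 0.632). The relation rested on few hearts, since r was 0.21 without the 2 farthest and -0.06, 0.45 and 0.94 within the blank, PLCβ1a and PLCβ1b groups. *Pdk4* ran against *Acadm* (r = -0.63, Spearman's coefficient = -0.52) and *Hadhb* (r = -0.59, Spearman's coefficient = -0.62), with adjusted permutation p of 0.351 and 0.551 in the families of *Acadm* and *Hadhb*, so neither passed.

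The pattern depended on the table. In log2(FPKM + 0.1), 43 of the 45 pairs were positive with a median r of 0.50, and 8 pairs passed in both families. *Cpt1b* was in 4 of these, with r = 0.88 to *Hadha*, 0.85 to *Acadvl*, 0.77 to *Acadm* and 0.71 to *Fabp3*, and the others were *Acadm* with *Acadvl* (0.81) and *Hadha* (0.83), *Acadvl* with *Hadha* (0.85) and *Cpt2* with *Pdk4* (0.71). More of all genes passed in FPKM as well. The shares were 17.9% with *Acadvl*, 10.9% with *Cpt1b*, 5.58% with *Cd36*, 3.86% with *Fabp3*, 2.96% with *Hadha*, 2.31% with *Cpt2*, 1.55% with *Pdk4*, 0.245% with *Acadm*, 0.0409% with *Hadhb* and 0% with *Acadl*. The signs of the *Pdk4* pairs with *Acadm* and *Hadhb* stayed negative, at -0.24 and -0.17. What differs between the tables beside the scaling was not tested.

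**Figure D3:**
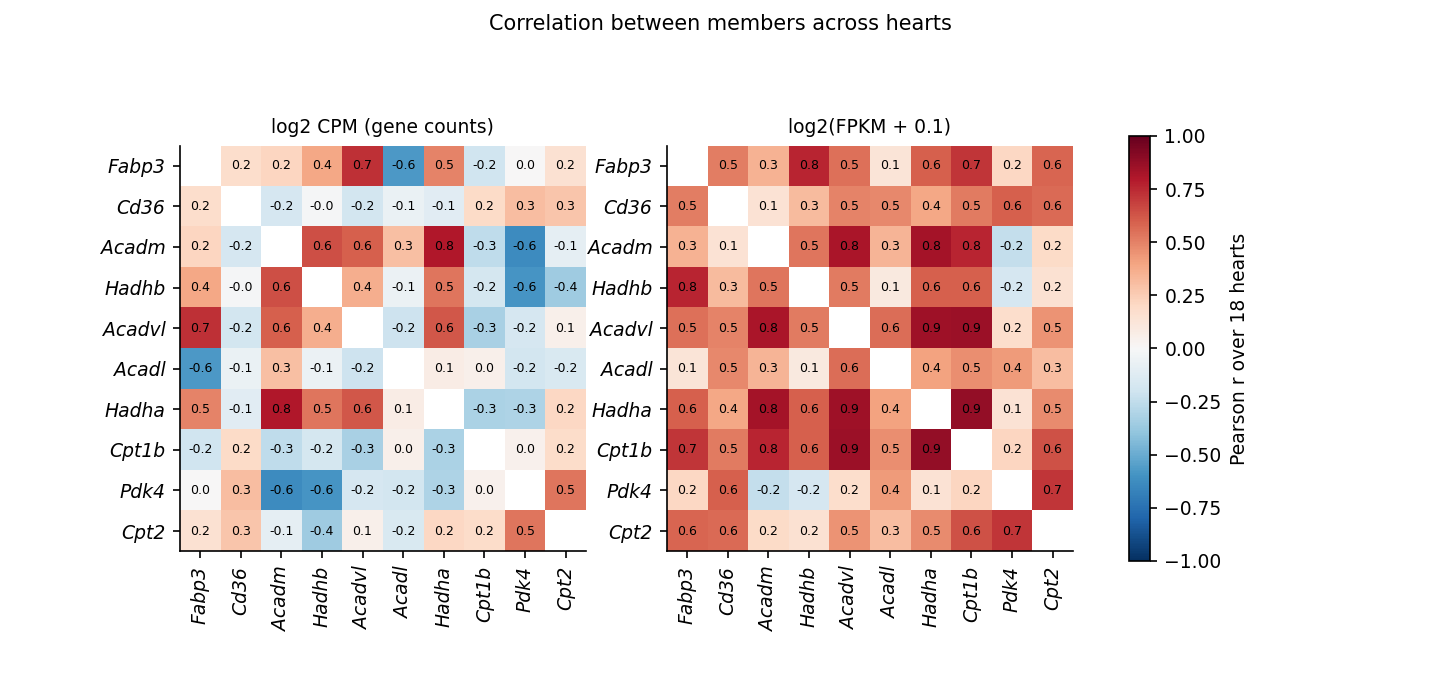
Pearson r over 18 hearts between each pair of the 10 genes, in log2 CPM from counts (left) and in log2(FPKM + 0.1) (right); the colour scale runs from -1 (blue) to 1 (red) and the r is printed in each cell. CPM gives 24 positive pairs of 45 and FPKM gives 43.

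Because *Pdk4* varied most, the genes that followed it were listed. Of 12280 genes, 20 (0.163%) passed an adjusted p of 0.1. Among genes that averaged 3 FPKM or more, the 5 highest r were those of *Slc40a1* (0.88), which encodes the iron exporter ferroportin, *Aox1* (0.85), an aldehyde oxidase, *Lipe* (0.85), hormone-sensitive lipase, *Gpam* (0.84), the mitochondrial enzyme that starts glycerolipid synthesis, and *Mlycd* (0.82), malonyl-CoA decarboxylase, which removes the inhibitor of CPT1. The adjusted permutation p was 0.0246 for *Slc40a1*, *Aox1* and *Gpam*, whose raw p of 1e-05 is the smallest that 100000 permutations can give, and 0.0573 for *Lipe* and *Mlycd*. Spearman's coefficient was 0.86, 0.81, 0.84, 0.83 and 0.81 for the 5 genes in the same order. Once the 2 hearts most distant from the *Pdk4* median were dropped, the 5 values of r lay between 0.78 and 0.86.

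For these 5 genes r was positive within every group, but in PLCβ1a hearts only *Slc40a1* had an exact permutation p under 0.05. For *Slc40a1* r within the blank, PLCβ1a and PLCβ1b groups was 0.90, 0.89 and 0.98 (exact permutation p = 0.0194, 0.0208 and 0.00139, n = 6 each). For *Lipe* it was 0.81, 0.62 and 0.99, and for *Gpam* 0.88, 0.40 and 0.93. *Aox1* had 0.93, 0.29 and 0.90, and *Mlycd* 0.97, 0.43 and 0.75. In PLCβ1a hearts the exact permutation p of these 4 genes was 0.188, 0.442, 0.557 and 0.381. Measured values show the size of the swing. *Lipe* ran from 9.79 to 15.4 CPM, *Gpam* from 85.1 to 134 CPM and *Slc40a1* from 8.79 to 17.0 CPM, with blank hearts 26 or 32 lowest or close to it in each and PLCβ1b heart 8 among the highest. These genes therefore varied 1.57-fold to 1.93-fold across hearts in which *Pdk4* CPM varied 4.397-fold.

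The 5 lowest r belonged to *Rapgef6* (-0.87), *Doc2g* (-0.86), *Pfkfb2* (-0.79), *Mrpl22* (-0.79) and *Eif4e* (-0.78). PFKFB2 is the cardiac enzyme that makes the glycolysis activator fructose 2,6-bisphosphate, and its message ran from 75.4 CPM in PLCβ1a heart 7 to 135 CPM in blank heart 26. Adjusted permutation p was 0.0409, 0.0246, 0.0573, 0.0776 and 0.0573 in the same order, and Spearman's coefficient lay between -0.88 and -0.72. Of these 5, *Pfkfb2* also passed in FPKM (r = -0.75), whereas the other 4 did not (r -0.50 to -0.45). All 5 genes with the highest r passed in FPKM too, with r of 0.79 to 0.92.

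Of 111 tested genes of the pathway lists, 5 passed with *Pdk4*, all with a positive r. They were *Lipe*, *Gpam* and *Mlycd*, together with *Plin2* (r = 0.82, adjusted permutation p = 0.0573), the coat protein of lipid droplets, and *Ehhadh* (r = 0.81, adjusted permutation p = 0.0573), a peroxisomal β-oxidation enzyme. That is 4.5% of the lists, which were chosen with earlier results of these data known, against 0.163% of all genes. With group means removed, 15 list genes passed in CPM, 14 of them positive, against 1.45% of all genes. The negative one was *Acat1* (r = -0.79, adjusted permutation p = 0.0335). Without that step *Acat1* did not pass (r = -0.70, adjusted permutation p = 0.204), nor did it in FPKM (r = -0.18). In FPKM, 16 list genes passed, all positive, against 1.55% of all genes. Further targets of PPARα picked after their values were seen were *Ucp3*, the muscle uncoupling protein (r = 0.74, adjusted permutation p = 0.118), and *Angptl4*, the secreted inhibitor of lipoprotein lipase (r = 0.70, adjusted permutation p = 0.198). Neither passed in CPM and both passed in FPKM. *Ucp3* ran from 5.66 CPM in blank heart 30 to 33.003 CPM in PLCβ1b heart 8. *Lipe*, *Plin2* and *Gpam* are also expressed in fat. Of the 7 adipocyte markers, 2 had enough counts to test, and their r with *Pdk4* was 0.29 (*Cfd*) and 0.10 (*Car3*). The summed adipocyte markers lay between 0.885 and 3.08 CPM in blank, 1.12 and 9.23 CPM in PLCβ1a and 0.82 and 3.30 CPM in PLCβ1b hearts. The 7 macrophage markers had r with *Pdk4* of 0.38 (*Ptprc*) to 0.61 (*Csf1r*), and the erythrocyte marker *Alas2* had 0.65. The other 4 of the 5 erythrocyte markers, the globin genes *Hba-a1*, *Hba-a2*, *Hbb-b1* and *Hbb-b2*, had 0 counts in every heart. They could not be read, and the cause was not tested. Endothelial markers ran from 0.03 (*Pecam1*) to 0.64 (*Emcn*) and fibroblast markers from -0.31 (*Lum*) to 0.33 (*Col1a1*). Cardiomyocyte markers ran from -0.59 (*Myl2*) to 0.74 (*Ryr2*). None of these passed, the lowest adjusted permutation p being 0.143 (*Ryr2*). The part of any cell type in the relation was not tested.

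**Figure D4:**
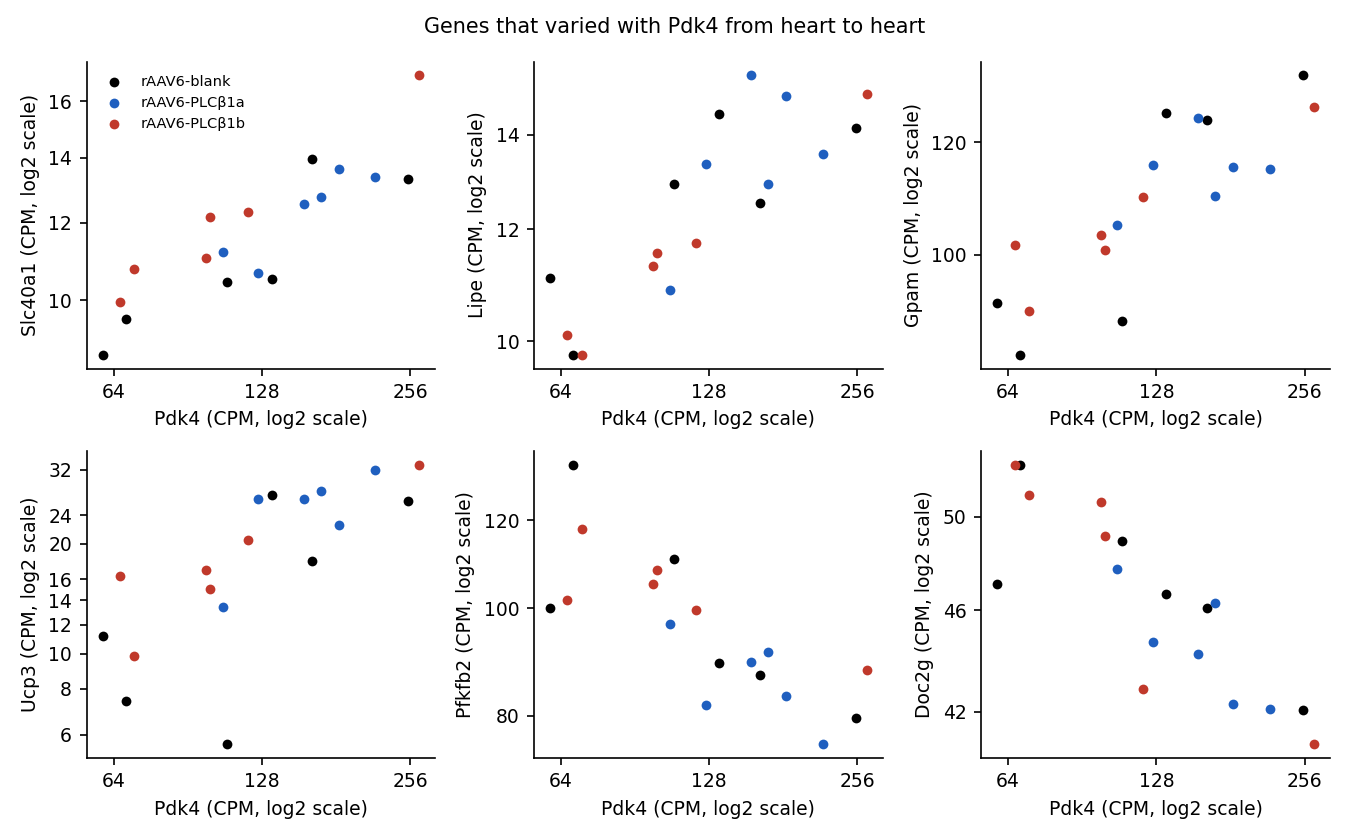
*Pdk4* (x axis, CPM) against 6 genes (y axes, CPM), all on log2 scales, for 18 hearts coloured by group (black rAAV6-blank, blue rAAV6-PLCβ1a, red rAAV6-PLCβ1b). *Slc40a1*, *Lipe*, *Gpam* and *Ucp3* are higher where *Pdk4* is higher, and *Pfkfb2* and *Doc2g* are lower. The groups overlap along *Pdk4* but do not cover the same range. Blank hearts lie at 60.8 to 254 CPM and PLCβ1a hearts at 107 to 218 CPM. PLCβ1b hearts lie at 66.0 to 120 CPM, apart from heart 8 at 267 CPM.

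Of the genes that followed *Pdk4*, the 10 with the highest or lowest r did not pass in any comparison. For *Lipe* the log2 fold change against blank was -0.13 (SE 0.10) in PLCβ1b and 0.10 (SE 0.10) in PLCβ1a hearts, and for *Pfkfb2* it was 0.05 (SE 0.11) and -0.21 (SE 0.11), with adjusted p of at least 0.641 in edgeR for all 10 genes. In PLCβ1b against PLCβ1a hearts *Lipe* had -0.23 (SE 0.10, unadjusted p = 0.0349 from edgeR). *Pfkfb2* had 0.26 (SE 0.11, unadjusted p = 0.0328 from edgeR). The rest of the 10 were above 0.05 there, a level that 4.42% of all genes passed. *Ehhadh* did not pass either, with a log2 fold change of 0.37 (SE 0.17, edgeR adjusted p = 0.569) in PLCβ1a hearts.

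The rest of the pathway was read through 9 lists with 116 genes, of which 111 had enough counts to test. No list gene passed in any comparison in edgeR, as in DESeq2 and limma. At an unadjusted p under 0.05, 11 (9.91%) did so in PLCβ1b against blank, 15 (13.5%) in PLCβ1a against blank and 5 (4.5%) in PLCβ1b against PLCβ1a, against 7.41%, 8.58% and 4.42% of all genes. The median log2 fold change over the lists was -0.01 in both comparisons with blank.

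One list gene, *Pdpr* (pyruvate dehydrogenase phosphatase regulatory subunit, named after its values were seen), did not overlap between PLCβ1a and blank hearts, at a log2 fold change of 0.07 (SE 0.04). That is 0.901% of the 111 list genes tested, against 0.594% of all genes.

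Among the transcriptional regulators, the longest list, 7 of 20 genes (5 of them lower) were under an unadjusted p of 0.05 in PLCβ1b hearts and 4 of 20 in PLCβ1a hearts, by edgeR, against 7.41% and 8.58% of all genes. *Klf15*, a cardiac regulator of lipid use, averaged 19.9 ± 1.59, 17.1 ± 2.13 and 16.4 ± 2.11 CPM with the blank, PLCβ1a and PLCβ1b vectors (SD, n = 6). Its log2 fold change was -0.28 (SE 0.08, edgeR adjusted p = 0.297) in PLCβ1b and -0.22 (SE 0.08, edgeR adjusted p = 0.380) in PLCβ1a hearts. *Ppara* itself averaged 51.0 ± 3.22, 45.4 ± 4.43 and 43.7 ± 4.82 CPM in the same order, with log2 fold changes of -0.22 (SE 0.07, edgeR adjusted p = 0.379) and -0.17 (SE 0.07, edgeR adjusted p = 0.474). Both genes had their highest mean in blank hearts, and their groups overlapped. Of the fits with 1 heart left out, *Klf15* passed in PLCβ1b against blank only without PLCβ1b heart 16 (log2 fold change -0.35, edgeR adjusted p = 0.0350).

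In PLCβ1a against blank hearts, 6 of 9 tested genes of the fasting list had a positive log2 fold change (median 0.07, against 0.00 over all genes), and 2 of 9 were under an unadjusted p of 0.05 in edgeR, against 8.58% of all genes. In PLCβ1b against blank hearts, 4 of the 9 were positive (median -0.02, against 0.00 over all genes). There 1 of 9 was under an unadjusted p of 0.05 in edgeR, against 7.41% of all genes. *Cpt1a*, the liver-type carnitine enzyme of another list, averaged 23.9 ± 4.92 CPM in blank and 30.3 ± 3.35 CPM in PLCβ1a hearts (SD, n = 6). Its log2 fold change was 0.33 (SE 0.11, edgeR adjusted p = 0.364). Of the fits with 1 heart left out, it passed only without blank heart 36 (0.43, edgeR adjusted p = 0.0850). *Acsl3*, an acyl-CoA synthetase, had a log2 fold change of 0.33 (SE 0.11, edgeR adjusted p = 0.338). *Angptl4* had the largest value of the lists, 0.91 (SE 0.35, edgeR adjusted p = 0.474), at only 1.15 to 5.55 CPM. *Oxct1*, the enzyme that begins ketone body use, stood at 534 ± 19.1, 499 ± 20.2 and 499 ± 32.9 CPM with the blank, PLCβ1a and PLCβ1b vectors. Its log2 fold change was -0.10 (SE 0.04) with either PLCβ1 vector.

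The most abundant genes of the lists had small values without passing. *Lpl* (log2 fold change -0.09, SE 0.04, in PLCβ1b hearts) was under an unadjusted p of 0.05, as was *Oxct1* with either PLCβ1 vector (edgeR). In PLCβ1b hearts the others included *Fabp4* (-0.05, SE 0.06), *Acaa2* (-0.02, SE 0.04), *Etfb* (-0.08, SE 0.04) and *Pdha1* (-0.02, SE 0.04). Of the other kinases of pyruvate dehydrogenase, named after their values were seen, *Pdk2* (45.1 FPKM) was near the 48.1 FPKM that *Pdk4* averaged, with group means between 43.9 and 45.9 FPKM, and *Pdk1* stood at 19.9 FPKM. The plot of the lists shows medians within 0.10 of 0 for every list in both comparisons with blank.

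**Figure D5:**
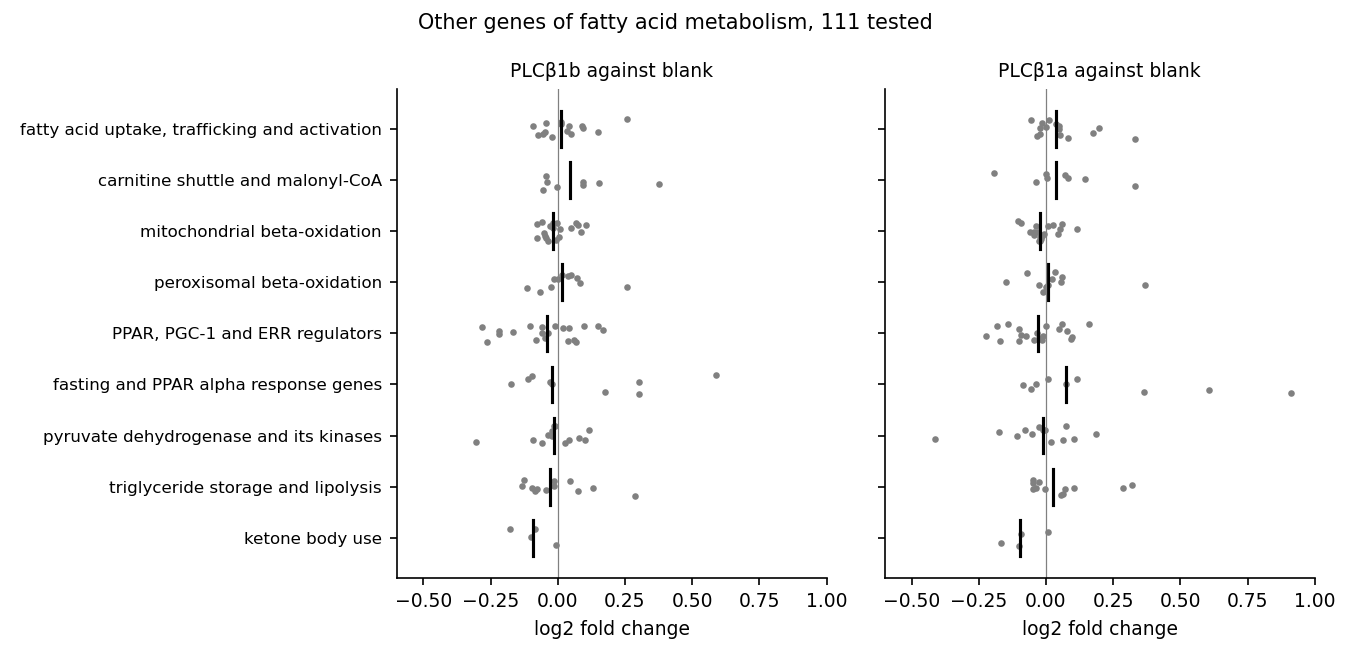
Log2 fold change of the 111 tested genes of 9 pathway lists in PLCβ1b (left) and PLCβ1a (right) against blank hearts; each point is a gene and each bar the median of a list. No point passed an adjusted p of 0.1, and the far right point is *Angptl4* in both panels (0.59 and 0.91).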

How the data were processed

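Ribosomal RNA-depleted, strand-specific, paired-end libraries of 76 nt reads were made by the study from 18 hearts. The submitters' processing notes name TopHat2 2.0.10, Bowtie2, HTSeq, DESeq, edgeR and Cufflinks 2.1. Raw gene counts were deposited by the authors, who counted with HTSeq in union mode. FPKM values were also deposited by the authors; the program that made them is not stated for the table itself. Reads were aligned to the mm10 UCSC release; positions and exon lengths came from the deposited annotation, and promoters from RefSeq on GRCm38.p6. Of the genes, 23332 matched by name between the tables, 27 carry dates for names, and 0 columns of values were left unused.

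Counts were filtered (minimum count 10, minimum total 15), scaled by TMM and fitted with 1 mean per group and robust shrinkage in edgeR 4.0.16 (R 4.3.3). Benjamini-Hochberg adjusted p below 0.1 was called. DESeq2 1.42.0, and limma 3.58.1 on log2(FPKM + 0.1), were alternatives, with other scalings, filters and each heart left out. Log2 CPM used a prior count of 2, and Pearson and Spearman correlations used permutations (two-sided; exact within groups). Python 3.11.15 with numpy 2.4.6, pandas 2.3.3 and scipy 1.17.1 was used. Scripts were tested on simulated data. The members, gene lists and tests were chosen with earlier results of these data known. Named were all members, the list genes with the 3 lowest p per comparison and direction, the 2 most abundant of each list, and the 5 highest and 5 lowest r with *Pdk4*. A gene that this rule names is not reported here. Hearts are separate mice, and counting precision is limited by depth, in particular for *Cpt1b*.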

Additional observations from a re-analysis of the deposited data

Results flagged for a closer look

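Of 60 sets of 6 hearts (each member in each group, in CPM and in FPKM), 5 had a heart whose gap to its nearest neighbour exceeded 0.625 of the range of its group, the limit of Dixon's test; chance flags about 1 in 20 groups. *Pdk4* was flagged in PLCβ1b heart 8 in both units, with a gap of 0.731 of the range in CPM (267 CPM against 66.0 to 120 in the other 5 hearts) and of 0.759 in FPKM. *Cpt1b* was flagged in the same heart in CPM (0.766; 1.15 CPM against 0.652 to 0.769), on 11 to 23 counts, and not in FPKM. *Fabp3* in CPM was flagged in PLCβ1a heart 21 (0.756; 261 CPM against 184 to 203) and in PLCβ1b heart 6 (0.635; 245 CPM against 181 to 204), and in neither in FPKM.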

How the results depend on the processing

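No member passed an adjusted p of 0.1 in any comparison under any of the 300 values from other settings or the 540 with 1 heart left out; the lowest adjusted p were 0.723 and 0.515 (edgeR, DESeq2 or limma). Some directions turned, that of *Pdk4* (main value -0.13) only with a heart left out, and the cause was not tested. In limma on log2(FPKM + 0.1), with or without a mean of at least 3 FPKM, and on log2(FPKM + 1), the log2 fold changes against blank became -0.0201 and -0.0201 for *Cd36* and -0.0173 and -0.0172 for *Hadhb* in PLCβ1b hearts, and -0.0210 and -0.0209 for *Cd36* and 0.00483 and 0.00477 for *Cpt1b* in PLCβ1a hearts. Against PLCβ1a they became 0.000834 and 0.000824 for *Cd36*, -0.0178 and -0.0177 for *Cpt1b*, -0.000221 for *Acadm*, 0.00252 and 0.00250 for *Acadl* and -0.00120 and -0.00118 for *Hadhb*. For *Cd36*, DESeq2 (-0.000335), RLE scaling (-0.000223) and no filter on low counts (-0.00363; -0.00314 for PLCβ1a) also turned the sign against blank, and upper-quartile scaling that against PLCβ1a (0.00122). With 1 heart left out, PLCβ1b against blank ran from -0.0172 to 0.0222 for *Cd36*, -0.0676 to 0.00647 for *Cpt2*, -0.000374 to 0.0538 for *Acadm*, -0.0348 to 0.0126 for *Hadha*, -0.0128 to 0.0406 for *Hadhb* and -0.539 to 0.164 for *Pdk4*. PLCβ1a against blank ran from -0.0207 to 0.0187 for *Cd36* and -0.0512 to 0.0100 for *Acadvl*. PLCβ1b against PLCβ1a ran from -0.0186 to 0.0211 for *Cd36*, -0.0818 to 0.0550 for *Fabp3*, -0.129 to 0.115 for *Cpt1b*, -0.0228 to 0.0321 for *Acadm*, -0.0211 to 0.0145 for *Acadl* and -0.0373 to 0.0283 for *Acadvl*. Pathway genes called ranged from 0 to 1 with a heart left out in each comparison with blank (*Klf15* without PLCβ1b heart 16, *Cpt1a* without blank heart 36). Member pairs that passed went from 0 to 8 in log2(FPKM + 0.1) and to 2 with group means removed (*Acadm* with *Hadha*, *Fabp3* with *Acadvl*). Genes called over the whole table were 12, 17 and 0 in edgeR in the 3 comparisons, 12, 10 and 1 without robust shrinkage, an alternative chosen after seeing the data, 24, 23 and 1 in DESeq2 and 5, 6 and 0 in limma. Genes that passed with *Pdk4* numbered 20 in CPM, 190 in FPKM and 178 with group means removed, and 15 and 20 of the first 20 were among them. No paired analysis was possible because the heart numbers are not shared between groups.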
